A study of Homo sapiens with 8 samples.

Results

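The nuclear lamina and the LINC complex join chromatin, the nuclear envelope and the cytoskeleton. Ago2 peaks were examined in their genes, taken as every listed peak whose gene symbol was LMNA, LMNB1, LMNB2, SUN1, SUN2, SYNE1, SYNE2 or LBR. Of 22506 peaks in 6326 genes, 62 peaks belonged to 6 of these 8 genes. LBR had 21 peaks, LMNB2 had 12, LMNB1 had 10, SUN2 had 9, SYNE2 had 6 and SUN1 had 4. LMNA and SYNE1 had no peak in the table, so nothing is reported on them. The genes, and the contrast of LMNB1 with SUN2, were chosen by their deposited ratios of emetine to control, in which Ago2 reads are set against RNA, so these differences are given as descriptions without a test.

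Ago2 is the Argonaute protein that carries microRNAs to their target transcripts. CLIP, in which RNA crosslinked to a protein is immunoprecipitated with it, was done on 293S cells, which descend from the embryonic kidney line HEK293. The treated cells had received emetine, an alkaloid that blocks translation elongation, at 20 µg/mL for 60 minutes, and the control cells had no treatment. Each treatment was 1 culture, divided into 1 aliquot for RNA-seq and 3 aliquots for CLIP with antibodies from Abnova, Santa Cruz and Sigma. The spread between CLIP libraries is therefore one between aliquots and antibodies, and nothing here measures the spread between cultures.

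Lamins are intermediate filament proteins that polymerise into a mesh under the inner nuclear membrane. B-type lamins, the products of LMNB1 and LMNB2, keep a farnesyl tail that anchors them in the membrane, and the lamin B receptor LBR holds them there together with heterochromatin. SUN1 and SUN2 span the inner membrane and bind, between the membranes, the KASH domains of nesprins such as SYNE2 (nesprin-2), which reach from the outer membrane to the cytoskeleton. Such SUN and KASH pairs form the LINC complex.

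The deposited values allowed whole reads per library to be recovered for 22499 peaks, including all 62 member peaks. Reads in listed peaks came to 41028, 105002 and 97178 in emetine libraries 1 to 3 and to 39906, 117805 and 103775 in control libraries 1 to 3. The libraries of each treatment are numbered here in descending order of normalised value per read, so library 1 has the largest by construction, and it is the shallowest. The table does not show which antibody made which library, so libraries of the same number in emetine and control need not share an antibody. Member peaks held 472 emetine reads and 757 control reads. A member peak had a median of 15 reads over the 6 libraries, as did all peaks. Ratios of read totals are scaled by depth and carry exact binomial 95% intervals. The intervals cover counting error alone and leave out the spread between libraries. They are too narrow even for counting error where PCR copies of a molecule are counted more than once.

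Over all peaks, limma with Benjamini-Hochberg adjustment put 0 of 22499 peaks under an adjusted p of 0.05 (0%), and 0 of the 62 member peaks, with 0 peaks by limma-voom as well. At an unadjusted p under 0.05 limma had 173 peaks higher (0.769%) and 67 lower (0.298%) with emetine, and limma-voom had 554 in either direction. With reads summed per gene, limma put 0 of 6319 genes (0%) under an adjusted p of 0.05 and 116 (1.84%) under an unadjusted p of 0.05. By limma-voom, 2 genes, lower with emetine, were under the adjusted one, and no further gene was under an unadjusted p of 0.05. Its count is thus far from that of limma, its smallest adjusted p was 0, and the names of these genes were not kept, so nothing is read from that fit. Among the members, 1 of 62 peaks (higher) and 1 of 6 genes had an unadjusted p under 0.05 in limma. The genes were chosen on this contrast, so nothing is read from those counts. In limma no member peak or gene had an adjusted p under 0.05, and read numbers per library are given so that their spread can be seen.

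LMNB1 and SUN2 lay at opposite ends of the group. Ago2 reads on LMNB1 were more numerous with emetine, by 2.78-fold in read totals, while those on SUN2 were fewer, at 0.112 of the control. LMNB2, the other B-type lamin, stood on the side of SUN2 with a ratio of 0.162. LBR and SYNE2 had ratios of 0.662 and 0.547, and SUN1 had an interval that included 1. For both SYNE2 and SUN1, the log2 change took the other sign when certain single libraries were left out.

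**Figure D1:**
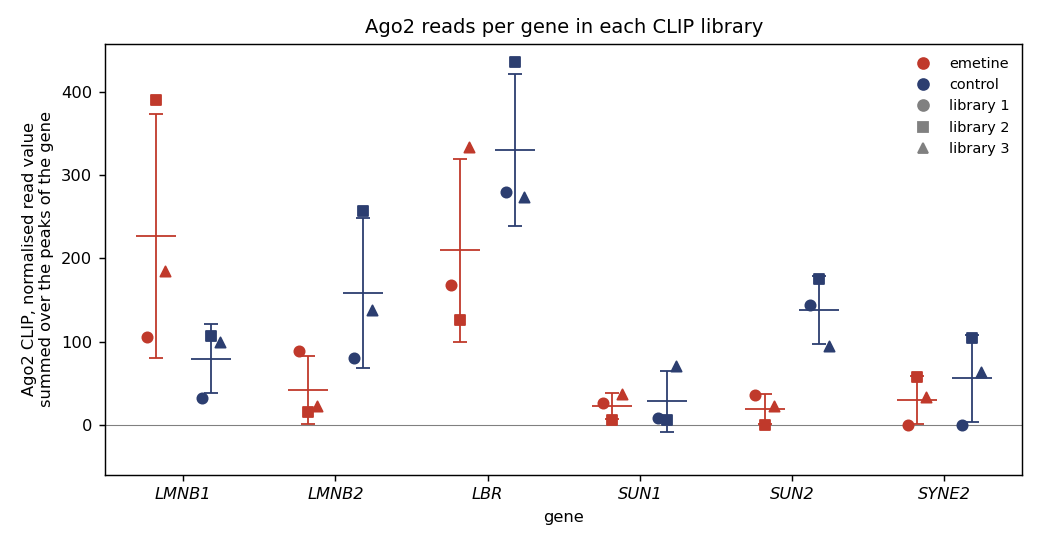
Normalised Ago2 read value per gene (vertical axis, reads multiplied by the value of 1 read and summed over the peaks of the gene) in each of the 3 emetine (red, left) and 3 control (blue, right) CLIP libraries; horizontal lines are means and bars are SD. SUN2 shows the emetine libraries at 35.5 or less and the control libraries at 94.6 or more, while for LMNB1 the lowest emetine library, at 106, lies just under the highest control library, at 107.

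LMNB1 encodes lamin B1, a lamin made in most dividing cells. Its 10 peaks together held 12, 130 and 66 reads in emetine libraries 1 to 3, against 4, 38 and 41 reads in control libraries 1 to 3. Normalised, these came to 227 ± 147 with emetine and 79.6 ± 41.4 in the control (SD, n = 3 libraries each). The emetine libraries were higher on average, but the lowest of them, at 106, lay below the highest control library, at 107, so the groups overlapped. Emetine library 2 held most of the emetine reads. The ratio of read totals was 2.78 (95% exact interval 2.15 to 3.64), and the difference of mean log2 values was 1.48 with all libraries, 0.99 without emetine library 2 and 0.93 without control library 1.

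The excess of emetine reads on LMNB1 lay mostly in coding peaks, and much of it at the single peak described in the next paragraph. The 7 coding peaks held 12, 108 and 53 reads with emetine, against 0, 33 and 21 in the control, a ratio of 3.56 (2.61 to 4.93). With that peak included, every emetine library lay above every control library in the coding peaks. Without it the coding groups overlapped. Emetine library 1 was at 53.2 over all other LMNB1 peaks. Control library 2, with no read at that peak, was at 93.2 over the coding peaks. How often the coding peaks of a gene are ordered so over all genes was not computed. The 2 peaks in the 3′ UTR, which overlap each other, held 0, 22 and 6 reads with emetine, against 2, 0 and 16 in the control, a ratio of 1.73 (0.923 to 3.32). The 5′ UTR peak had 0, 0 and 7 reads with emetine, against 2, 5 and 4 in the control. In both UTRs the groups overlapped.

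A single coding peak carried much of this. At hg19 chr5:126168385-126168403 on the plus strand, emetine libraries held 6, 42 and 37 reads, against 0, 0 and 2 reads in the control libraries. Every emetine library was above every control library. The log2 change of 5.64 was the highest of all 22499 peaks, which was known when the gene was chosen. With a constant of 5 in place of 1 added before the logarithm it was 3.91. The read totals had a ratio of 47.2, with a wide interval of 12.7 to 396 because the control held only 2 reads. Without this peak, a comparison added after the data were seen, LMNB1 held 6, 88 and 29 reads with emetine against 4, 38 and 39, a ratio of 1.69 (1.26 to 2.26) and a log2 change of 0.60.

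Among the other coding peaks of LMNB1, 3 were read in a single library, with 11 reads in emetine library 3, 12 in emetine library 2 and 14 in control library 2. Upstream of the strongest peak, a coding peak at chr5:126158526-126158568 held 2, 18 and 1 reads with emetine, against 0, 0 and 1 in the control. Here too the emetine libraries all lay above the control libraries, emetine library 2 by far. Library 3 held 1 read under either treatment, so there the order rests on the scaling alone. The ratio was 23.3 (3.75 to 965) and the log2 change 3.39. Between those peaks lies chr5:126161709-126161747, with 2, 35 and 4 reads with emetine against 0, 19 and 10 in the control. At that peak the groups overlapped, the ratio was 1.57 (0.953 to 2.62), and the log2 change of 1.38 became -0.36 without control library 1. The larger of the overlapping 3′ UTR peaks, at chr5:126172571-126172608, had 0, 12 and 3 reads with emetine, against 1, 0 and 8 in the control, and the groups overlapped (ratio 1.85, 0.759 to 4.8).

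SUN2 encodes an inner membrane anchor of the LINC complex. Its 9 peaks held 4, 0 and 8 reads with emetine, compared with 18, 62 and 39 in the control. Normalised, this was 19.3 ± 17.9 with emetine and 138 ± 40.5 in the control (SD, n = 3 libraries each). Every emetine library lay below every control library. Of 6319 genes, 138 (2.18%) were ordered in that way and 190 (3.01%) in the opposite way, and among the 6 member genes these numbers were 1 and 0. The ratio of read totals was 0.112 (0.0563 to 0.203). The log2 change was -3.83, and -2.20 without emetine library 2, which held no read on SUN2.

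All 9 SUN2 peaks had a log2 change below 0, with a median of -1.71, and 5 of them had no emetine read. Of the 9, 2 repeat the reads of another peak, as described in the next paragraph, so these counts are not of distinct reads. The 6 coding peaks held 2, 0 and 0 reads with emetine, against 16, 40 and 34 in the control, a ratio of 0.0247 (0.00295 to 0.0918). With repeats counted once, the coding peaks held 2 emetine and 72 control reads. The 3 peaks in the 3′ UTR held 2, 0 and 8 reads with emetine, against 2, 22 and 5 in the control, a ratio of 0.383 (0.167 to 0.809). The coding reads were thus fewer in every emetine library than in every control library, whereas the 3′ UTR reads overlapped between the groups. How often the coding reads of a gene are ordered so over all genes was not computed.

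Peaks at chr22:39141804-39141816 and chr22:39144717-39144737, both coding and on the minus strand, listed the same reads, 0, 0 and 0 with emetine, against 8, 0 and 10 in the control. Their starts lie 2913 bases apart. With 0 emetine reads set to 3, a floor for a treatment's libraries together, each was at least 5.4-fold lower with emetine. In the 3′ UTR, the overlapping peaks from 39131347 and from 39131366 also shared all reads, 1, 0 and 0 with emetine, against 0, 11 and 2 in the control. With such repeats counted once, SUN2 held 3, 0 and 8 reads with emetine, against 10, 51 and 27 in the control, a ratio of 0.139 (0.0669 to 0.261).

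The other SUN2 peaks came largely from a single control library each. The coding peak at chr22:39134598-39134622 had no emetine read and 0, 15 and 1 control reads, which is at least 4.8-fold lower with emetine. The one at chr22:39147232-39147261 had 2, 0 and 0 reads with emetine, against 0, 0 and 13 in the control, a ratio of 0.171 (0.0187 to 0.755) but a log2 change of only -0.27, which was 0.44 without emetine library 2 or 3 and 1.41 without control library 3. A 3′ UTR peak at chr22:39131655-39131687 had 0, 0 and 8 reads with emetine, against 2, 0 and 1 in the control. Its ratio of 2.96 (0.711 to 17.3) and its log2 change of -0.44 point in opposite directions, with all of its emetine reads in 1 library.

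**Figure D2:**
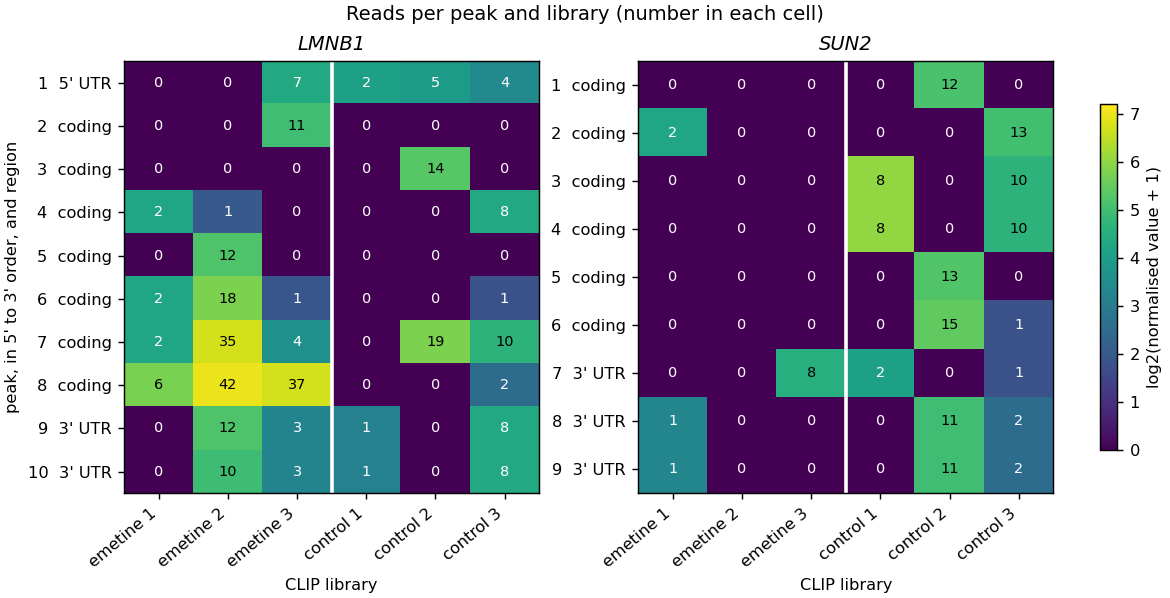
Reads at each peak (rows, in order along the transcript, with region) in each CLIP library (columns, emetine left of the white line) for LMNB1 and SUN2; colour is log2 of the normalised value plus 1. The LMNB1 coding peak with 6, 42 and 37 emetine reads stands out on the left, and 5 of 9 SUN2 peaks are empty in all emetine libraries. Of the 9 SUN2 rows, 2 repeat the reads of another.

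LMNB2 encodes lamin B2, and the table lists its peaks on the minus strand of chromosome 19. Its 12 peaks held 10, 5 and 8 reads with emetine, compared with 10, 91 and 57 in the control. Normalised, the means were 42 ± 40.5 with emetine and 158 ± 90.1 in the control (SD, n = 3 libraries each). The groups overlapped only through library 1 of each treatment, at 88.6 with emetine and 80 in the control. The ratio of totals was 0.162 (0.0996 to 0.251) and the log2 change -2.14.

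The scarcity of emetine reads on LMNB2 was clearest in the 3′ UTR. Its 8 peaks there all had log2 changes below 0 and held 6, 1 and 0 reads with emetine against 8, 59 and 37 in the control, a ratio of 0.0748 (0.0293 to 0.16). After normalisation every emetine library lay below every control library in the 3′ UTR, the closest being library 1 of each treatment. The share of all genes with such an order in a single region was not computed, and the members were chosen on this contrast. The 4 coding peaks held 4, 4 and 8 reads with emetine, against 2, 32 and 20 in the control, a ratio of 0.329 (0.176 to 0.584). In the coding peaks the groups overlapped.

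Among single LMNB2 peaks, the 3′ UTR peak at chr19:2428445-2428488 had the most reads, 1, 0 and 0 with emetine, against 3, 19 and 0 in the control (ratio 0.0505, 0.00122 to 0.312). At chr19:2429058-2429080 the emetine libraries held 0 reads, and all 19 reads came from control library 2. The coding peak at chr19:2435136-2435167 had 0, 0 and 1 reads with emetine, against 1, 16 and 0 in the control. In contrast, the coding peak at chr19:2444406-2444440 was read in all emetine libraries, at 3, 2 and 3 reads, against 1, 0 and 10 in the control. That peak and its overlapping neighbour were the only LMNB2 peaks with a log2 change above 0, at 1.00 and 1.56. The change at the first of them was -0.30 without control library 2.

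LBR, a membrane protein that is also a sterol reductase, had more peaks than 98.7% of genes, the median gene having 2. Its peaks held 19, 42 and 119 reads with emetine, against 35, 154 and 113 in the control. The normalised means were 210 ± 110 with emetine and 330 ± 91 in the control (SD, n = 3 libraries each). Emetine library 3 exceeded 2 of the control libraries, so the groups overlapped. The ratio of totals was 0.662 (0.548 to 0.799) and the log2 change -0.74.

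Along LBR the peaks differed by region. The 5′ UTR peak at chr1:225615680-225615737, on the minus strand like all LBR peaks, had 3, 15 and 1 reads with emetine, against 2, 0 and 2 in the control, a ratio of 5.28 (1.75 to 21.3) that rests on emetine library 2. The 8 coding peaks held 5, 12 and 45 reads with emetine, against 11, 44 and 27 in the control, a ratio of 0.84 (0.594 to 1.18). The 12 peaks in the 3′ UTR held 11, 15 and 73 reads with emetine, against 22, 110 and 84 in the control, a ratio of 0.509 (0.397 to 0.649). The ratio of totals was thus above 1 at the 5′ end and below 1 in the 3′ UTR, with overlapping groups in all 3 regions.

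Single LBR peaks went both ways, with 8 log2 changes above 0 and 13 below, from -3.65 to 2.72. In the 3′ UTR, chr1:225590478-225590505 had no emetine read and 1, 13 and 2 control reads, so all emetine libraries lay below all control libraries, at least 4.8-fold lower in totals. The coding peak chr1:225600167-225600204 had 1, 3 and 7 reads with emetine, against 1, 3 and 0 in the control. After normalisation all its emetine libraries lay above the control libraries, by a small margin that rests on the scaling, and with a ratio of 3.06 (0.905 to 13.2).

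The deepest LBR peaks overlap each other near the transcript's 3′ end. The one at chr1:225589400-225589437 had 1, 3 and 19 reads with emetine, against 0, 41 and 7 in the control, and the one at chr1:225589368-225589419 had 2, 3 and 20 with emetine, against 0, 27 and 11 in the control. For both, the ratio of totals lay below 1 (0.532 and 0.731) while the log2 change lay above 0 (0.45 and 0.77), with control library 1 at 0 reads. Without that library the log2 changes were -1.39 and -1.07. Further upstream in the 3′ UTR, chr1:225590687-225590736 had 0, 3 and 5 reads with emetine, against 6, 1 and 22 in the control (ratio 0.307, 0.121 to 0.687), and chr1:225590313-225590345 had 0, 0 and 8 with emetine, against 5, 0 and 15 in the control (ratio 0.444, 0.169 to 1.05).

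SUN1 encodes the paralogue of SUN2 in the inner membrane, and its peaks lie on the plus strand of chromosome 7. They held 3, 2 and 13 reads with emetine, against 1, 2 and 29 in the control. Normalised, the means were 23 ± 15.5 with emetine and 28 ± 36.7 in the control (SD, n = 3 libraries each), and the groups overlapped fully. The ratio was 0.625 (0.33 to 1.15), while the log2 change was 0.25. It was -0.22 without emetine library 3, -0.17 without control library 1 and -0.39 without control library 2.

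Each SUN1 peak rested on few reads. The coding peak at chr7:897499-897524 had 0, 0 and 13 reads with emetine and none in the control, so it was read in 1 library only. Its coding neighbour at chr7:893142-893187 had none with emetine, against 1, 0 and 10 in the control. A coding peak just before it, at chr7:893073-893121, had 2, 2 and 0 reads with emetine, against 0, 2 and 5 in the control. The 3′ UTR peak at chr7:913315-913350 had 1, 0 and 0 reads with emetine, against 0, 0 and 14 in the control (ratio 0.0794, 0.00188 to 0.522).

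SYNE2 encodes nesprin-2, a very large spectrin-repeat protein on a transcript of 21777 nt, read from the plus strand of chromosome 14. Its peaks held 0, 19 and 12 reads with emetine, against 0, 37 and 26 in the control. The normalised means were 30.2 ± 28.7 with emetine and 55.9 ± 52.6 in the control (SD, n = 3 libraries each), with overlapping groups. Each of its 6 peaks was read in 1 library only, compared with 15 of 62 member peaks (24.2%) and 26.5% of all peaks. The coding peak at chr14:64469673-64469698 had 19 reads in emetine library 2 and that at chr14:64457737-64457762 had 19 in control library 2. Control library 3 alone read the coding peak at chr14:64689955-64689980 (15 reads), and control library 2 alone the 3′ UTR peak at chr14:64692579-64692602 (18 reads). The ratio of totals for SYNE2 was 0.547 (0.344 to 0.853), and its log2 change was -0.58. That became 1.25 without emetine library 1, 0.66 without control library 2 and 0.30 without control library 3.

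**Figure D3:**
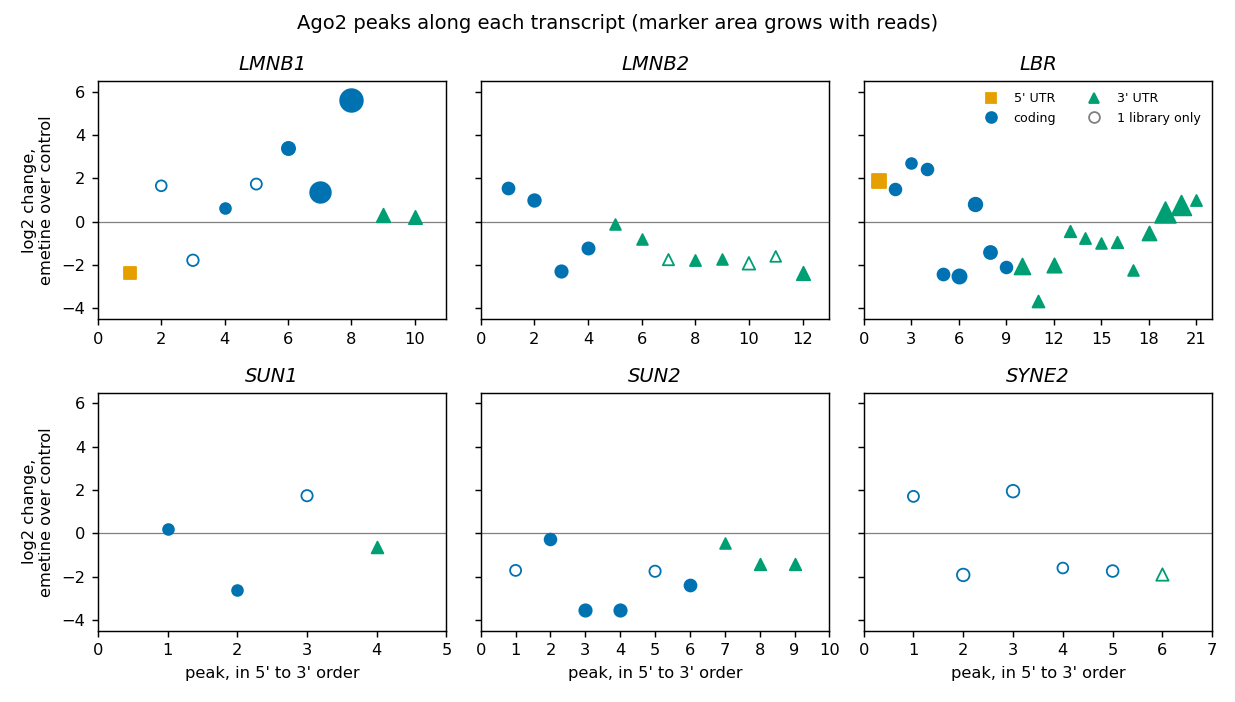
Log2 change, the difference of mean log2 of the normalised value plus 1, emetine minus control (vertical axis), for each peak of the 6 genes in 5′ to 3′ order (horizontal axis). Colour and shape give the region, marker area grows with reads, and open markers were read in 1 library only. LMNB1 has 8 of 10 peaks above 0, SUN2 has all 9 below 0, and in LMNB2 all 8 peaks of the 3′ UTR lie below 0. Of the 9 SUN2 peaks, 2 repeat the reads of another.

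Across the 62 member peaks, 22 had a log2 change above 0 and 40 below 0, while 50.2% of all peaks were above 0. Their median was -0.97, against 0.01 over all peaks. The regions are given apart, each beside all peaks of its kind. Of 33 member coding peaks, 16 were above 0 (median -0.27), against 4078 of 7473 over all coding peaks (median 0.29). The 6 coding peaks of SUN2, a gene chosen for its low ratio, were all below 0, so all 16 came from the other genes. Of 27 member 3′ UTR peaks, 5 were above 0 (median -0.99), against 6110 of 12955 over all 3′ UTR peaks (median -0.17). LMNB1 ran the other way, with a median of 1.00 over its peaks.

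Emetine libraries had no read at 16 of the 62 peaks (25.8%, against 20.2% of all peaks), and control libraries none at 7 (11.3%, against 17.7%). All emetine libraries lay above all control libraries at 3 member peaks (4.84%), which are the LMNB1 and LBR peaks given above, and at 2 of them the order rests on the scaling. Over all peaks this share was 2.55%. The opposite order was found at 1 member peak (1.61%), in LBR, and at 1.43% of all peaks. These shares rest on 1 to 16 peaks, and the genes were chosen with such results known.

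Member genes held a larger part of their peaks in coding sequence than the table as a whole. Coding peaks made up 33 of 62 (53.2%, against 33.2% of all peaks), and 3′ UTR peaks 27 of 62 (43.5%, against 57.6%). Over all mRNA peaks, 34.4% of emetine reads and 28.6% of control reads lay in coding sequence.

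The share of reads in coding peaks differed among the genes and between treatments. For LMNB1 it was 83.2% with emetine (Wilson 95% interval 77.5 to 87.6) and 65.1% in the control (54.3 to 74.4). LMNB2 had 69.6% with emetine (49.1 to 84.4) and 34.2% in the control (27.2 to 41.9). For SUN1 the coding share was 94.4% with emetine (74.2 to 99) and 56.2% in the control (39.3 to 71.8). In these 3 genes the intervals, which pool the libraries, did not overlap and the emetine share was the higher one. The intervals of SUN2 and SYNE2, given below, did not overlap either, with a lower emetine share for SUN2 and a higher one for SYNE2. How often such intervals lie apart over all genes was not computed. The SUN1 order rests on control library 3, without which the control share was 100%. For LMNB1 the control share was 46.7% without control library 2 and 78.6% without control library 3. The single LMNB1 coding peak described above held 85 of the 208 emetine reads and 2 of the 83 control reads. The LMNB1 shares without that peak were not computed.

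SUN2 had the opposite order, with 16.7% of reads in coding peaks with emetine (4.7 to 44.8) and 75.6% in the control (67.2 to 82.5). Its emetine share rests on 12 reads, and was 50% without emetine library 3 and 0% without emetine library 1. With the repeated peaks counted once, it was 18.2% with emetine and 81.8% in the control. For SYNE2 the share was 100% with emetine (89 to 100) and 71.4% in the control (59.3 to 81.1), with a control share of 100% without control library 2. For LBR the share was 34.4% with emetine (27.9 to 41.6) and 27.2% in the control (22.4 to 32.4).

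RNA abundance was read from 1 library per treatment, so these values have no replicate. In a bulk library, fewer cells with a transcript and less of it per cell cannot be told apart. The LMNB1 transcript was read 1716 times with emetine and 578 times in the control, which after normalisation is a log2 ratio of 0.23 (95% exact interval 0.09 to 0.36). That of SUN2 was read 128 times with emetine and 51 times in the control, with a log2 ratio of -0.02 (-0.50 to 0.48). Both genes were chosen by a ratio of Ago2 reads to RNA, so that their RNA differed less than their Ago2 reads follows from the choice.

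The other members had RNA ratios of the same small size. LBR stood at 0.11 (-0.02 to 0.24) and SYNE2 at -0.19 (-0.29 to -0.10). LMNB2 was at -0.24 (-0.43 to -0.05) and SUN1 at -0.35 (-0.59 to -0.10). Over the 5808 genes with at least 50 RNA reads, the median was 0.01 and the SD 0.35. No member had a log2 ratio above 1 or below -1, against 0.844% and 0.792% of those genes.

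**Figure D4:**
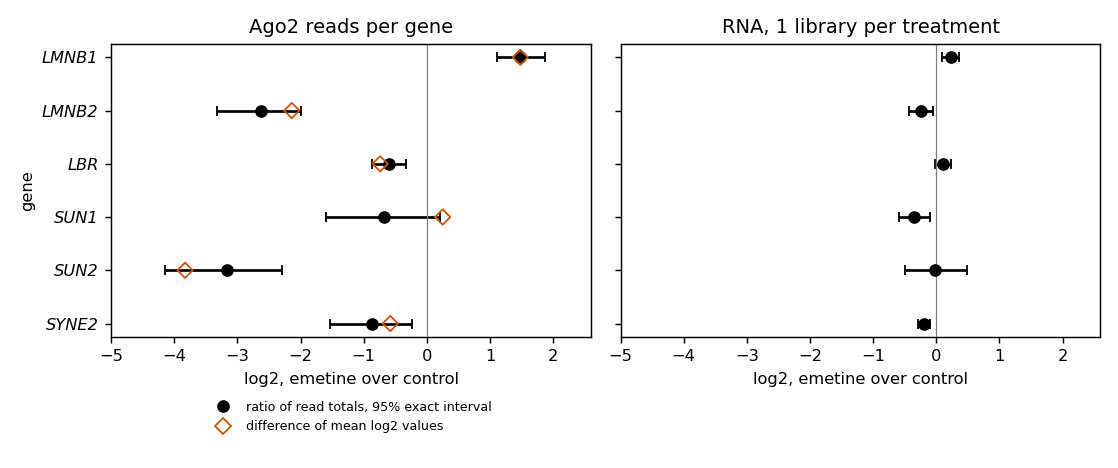
Log2 ratio of emetine over control for Ago2 reads summed per gene (left; points are ratios of read totals with exact 95% intervals, diamonds are differences of mean log2 values) and for RNA from 1 library per treatment (right). Ago2 ratios span -3.16 for SUN2 to 1.48 for LMNB1, while the RNA ratios of the same genes lie between -0.35 and 0.23.

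Levels of RNA per transcript length differed widely between the genes. The normalised RNA value per kilobase was 1500 with emetine and 1280 in the control for LMNB1, and 1260 with emetine and 1170 in the control for LBR. It was 79.9 with emetine and 80.8 in the control for SUN2, the lowest of the members. LMNB2 (403 with emetine, 476 in the control), SYNE2 (351 and 402 in the same order) and SUN1 (275 and 350) were between them. The median gene had 235 with emetine and 226 in the control.

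Set against RNA, SUN2 had many Ago2 reads in control cells. It had 9.38 Ago2 reads per 100 RNA reads with emetine, above 67.5% of genes, and 233 in the control, above 97.7% of genes. The control value rests on 51 RNA reads, and was 173 with identical peaks counted once. The genes were chosen by the change in Ago2 reads relative to RNA, so shifts in rank between treatments follow from the choice. These numbers use raw reads, and the RNA libraries differ in depth, so the ranks rather than the values can be set side by side. LMNB1 was above 74.1% of genes with emetine (12.1 Ago2 reads per 100 RNA reads) and above 49.6% in the control (14.4). LMNB2 was above 38.7% with emetine and 79.4% in the control.

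LBR stayed at like ranks, above 68.1% of genes with emetine and 78.7% in the control. The same held for SUN1, above 48% with emetine and 51.8% in the control, and for SYNE2, above 22.3% with emetine and 25.6% in the control. SYNE2 thus had few Ago2 reads for its RNA under both treatments. The median gene had 4.8 Ago2 reads per 100 RNA reads with emetine and 14.6 in the control.

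MicroRNA seed matches were sought in the members' 3′ UTRs, since Ago2 reaches many targets through bases 2 to 8 of its microRNA, the seed. A perfect match to the seed of 8 chosen microRNAs was sought on the transcript strand. The microRNA sequences are from RefSeq (GRCh38.p14), and the UTRs are from GENCODE release 29 on GRCh38. Since the peaks are on hg19, matches were not placed under peaks, and microRNA levels were not analysed here. The matched letters were GCACTTT (miR-17-5p), CTACCTC (let-7a-5p), ACCAAAG (miR-9-5p), AATGTGA (miR-23a-3p), TGCTGCT (miR-16-5p), GTGCAAT (miR-92a-3p), TTTGCAC (miR-19b-3p) and TGTTTAC (miR-30a-5p). Some matches can overlap, such as those of miR-19b-3p and miR-17-5p through the letters GCAC, and each was counted on its own.

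The contrasted genes LMNB1 and SUN2 both had 0 matches, in 3′ UTRs of 756 and 1531 nt. Among 743 UTRs within 25% of the LMNB1 length, 5.65% to 15.5% held a match to any given seed, and among 1021 UTRs near the SUN2 length, 9.79% to 25.4% did. This says only that these letters are not in these UTRs. LBR held 4 of the 8 member matches in a 3′ UTR of 1801 nt, for the microRNAs shown here with the seed in capitals.
hsa-let-7a-5p: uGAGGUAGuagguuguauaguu
hsa-miR-23a-3p: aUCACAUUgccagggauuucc
hsa-miR-30a-5p: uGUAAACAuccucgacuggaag

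The matching stretches of the LBR 3′ UTR are printed 5′ to 3′ with the match in capitals and with the position of its first base counted from the first base after the stop codon.
LBR 169, miR-30a-5p: tatagccgTGTTTACttgtatta
LBR 669, miR-23a-3p: gtattttgAATGTGAgatgattg
LBR 745, miR-23a-3p: tgtaaagtAATGTGAattaaaaa
LBR 859, let-7a-5p: tggctttgCTACCTCaattgcag
Among 991 UTRs of like length, 22.8% held a miR-30a-5p match, 21.9% a miR-23a-3p match and 10.6% a let-7a-5p match. LMNB2, the gene with the lowest 3′ UTR ratio among those with several such peaks, had a single match, to miR-9-5p (21.7% of 990 like UTRs held one).
hsa-miR-9-5p: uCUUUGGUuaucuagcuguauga
LMNB2 1540, miR-9-5p: cgcatcttACCAAAGcatttcct
SUN1 held 1 match each to miR-16-5p and miR-92a-3p, and SYNE2 held 1 to miR-17-5p.

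Genes that work with the lamina and the LINC complex were described as lists, chosen with earlier results of these data known. Of 20 inner nuclear membrane and lamina partners, 11 had peaks, 5 with a gene log2 change above 0 and 6 below (median -0.61). The median over all genes was 0.04, and 51.1% of genes were above 0. By ratio of totals, the lowest were TMEM194A at 0.586 (0.36 to 0.935), CBX5, a heterochromatin protein that binds LBR, at 0.668 (0.517 to 0.86), and LEMD3 at 0.694 (0.339 to 1.38). The highest were TOR1A, the torsin ATPase of the envelope lumen, at 1.88 (0.975 to 3.73), TMEM43 at 1.54 (1 to 2.39) and TOR1AIP2 at 1.28 (1.05 to 1.56).

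ICMT, the methyltransferase that finishes the farnesylated tail of lamins, was the 1 listed gene of 5 for prenylation and tail processing. It had 3, 21 and 18 reads with emetine, against 5, 58 and 54 in the control, a ratio of 0.399 (0.273 to 0.572). The groups overlapped. Its RNA log2 ratio was -0.10.

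Nuclear pore genes encode the complexes that perforate the same envelope. Of 31 genes, 26 had peaks, 17 with a log2 change above 0 and 9 below (median 0.94), and 1 had all emetine libraries above all control libraries, an order found in 3.01% of all genes. NUP107, a scaffold nucleoporin, had 0, 15 and 14 reads with emetine, against 1, 0 and 0 in the control, a ratio of 32.2 (5.34 to 1320), with overlapping groups. NUP50 and NUP35 had ratios of 6.67 (2.56 to 22) and 6.44 (2.47 to 21.3). RANBP2, of the cytoplasmic filaments, had a ratio of 0.44 (0.316 to 0.605), with NUP153 at 0.837 and NUP205 at 0.848. In limma, 0 of the 26 had an adjusted or an unadjusted p under 0.05.

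Among 10 cytoskeletal partners of the LINC complex, 8 had peaks, 5 above 0 and 3 below (median 0.61). DYNC1H1, the heavy chain of the dynein motor that pulls on nuclei, had 0, 41 and 20 reads with emetine, against 1, 1 and 0 in the control, a ratio of 33.9 (8.99 to 286). Emetine library 1 held none, so the groups overlapped. The dynein adaptor BICD2 had a ratio of 0.313 (0.131 to 0.67), the kinesin light chain KLC2 0.37 (0.204 to 0.642), KIF5B, a kinesin heavy chain, 0.492 (0.372 to 0.646), and PAFAH1B1, a dynein regulator, 0.694 (0.513 to 0.934). For BICD2 and KIF5B the log2 change was above 0, at 1.44 and 0.46, with control library 1 at 0 and 1 reads.

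The genes used to check the cell type appear only where Ago2 bound them. Of 7 genes reported in HEK293 cells, NEFL and VIM had peaks, and of 9 markers of other cell types 0 had any. VIM, the intermediate filament protein vimentin, had 3, 1 and 10 reads with emetine, against 5, 48 and 26 in the control, a ratio of 0.197 (0.103 to 0.35) with all emetine libraries below all control libraries, and NEFL had a ratio of 0.896 (0.776 to 1.03).

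Genes with a pattern over the 6 libraries most like that of LMNB1 were sought among 2311 genes with at least 50 reads, by Euclidean distance of centred log2 values. The nearest were OTUD3 (distance 0.691), EHMT1 (0.897) and MDM4 (1.01), against a median distance of 4.3. OTUD3 had 13, 131 and 68 reads with emetine, against 6, 61 and 62 in the control. For SUN2 the nearest were CD276 (1.53), S1PR2 (1.62) and MSL1 (1.93), against a median of 7.6. CD276 had 2, 0 and 15 reads with emetine, against 10, 46 and 25 in the control, and like SUN2 it lacked reads in emetine library 2.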

How the data were processed

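The authors deposited 1 table of Ago2 peaks on hg19 with, per the file headers, a normalised log average and a log ratio of emetine to no emetine, both on the natural log scale as the values showed. The submitters' processing notes name Bowtie 0.12.8, TopHat and DESeq without roles; peak calling is not given in the sources used here. Each treatment's value equals the mean over 3 CLIP libraries of ln(1 + reads × factor) minus the same for RNA, so factors and whole reads were searched for within a tolerance of 2e-13. This gave reads for 22499 of 22506 peaks (99.97%). In 45012 simulated peaks, built from recovered reads, 99.97% were recovered exactly and 0 wrongly. Their search left out the widest range used for the data, so wrong matches in that range were not tested. The value of 1 read was 8.86, 3.00 and 2.81 in the emetine and 8.00, 2.82 and 2.43 in the control CLIP libraries, and 2.51 and 6.37 in the emetine and control RNA libraries. A gene's reads are the sum over its listed peaks; coordinates are printed as listed.

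Background tests over all peaks and genes were made on log2(reads × factor + 1) with limma (version 3.58.1, trend on, R 4.3.3), for treatment only and without a filter, and were checked on simulated data; p-values were adjusted by Benjamini-Hochberg, with a threshold of 0.05. A log2 change is the difference of mean log2 values on that scale; ratios of totals are scaled by summed inverse factors, with 0 reads set at a floor of 3 over a treatment's libraries. Intervals, searches and figures used Python 3.11.15, scipy 1.17.1 and matplotlib 3.10.9. Members and gene lists were chosen with earlier results of these data known. Named peaks are the 4 with most reads per gene and those of at least 10 reads whose groups do not overlap, while others were named after their values were seen; named list genes are the 3 highest and 3 lowest ratios among genes with at least 30 reads. Alternatives were other constants (0.5 and 5), scaling, filters, limma-voom, each library left out, identical peaks counted once, and RNA-relative ratios.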

Additional observations from a re-analysis of the deposited data

How the results depend on the processing

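Read depth limits every value: a peak had a median of 15 reads over 6 libraries, and 1 read counted for the most in library 1. The log2 changes of the gene sums of LMNB1 (0.60 to 1.93), LMNB2 (-2.88 to -1.41), SUN2 (-4.80 to -1.67) and LBR (-1.14 to -0.44) kept their sign in all alternatives run. The genes were chosen by their deposited ratios, which are among these alternatives, so kept signs follow in part from the choice. Counting identical peaks once changed only SUN2. SUN1 (main 0.25) ran from -0.68 to 1.32 and SYNE2 (main -0.58) from -2.70 to 1.25, each with changes of sign. SUN2 was at -1.69 as the median deposited ratio relative to RNA and at -1.67 over peaks with reads in at least 3 libraries, against -3.83. Over all peaks, those at an unadjusted p under 0.05 numbered 240, with 554 by limma-voom and 303 to 448 with single libraries left out. limma-voom put 2 genes under an adjusted p of 0.05, against 0, and had no further gene under an unadjusted p of 0.05, so nothing is read from that fit. Peaks with all emetine above all control libraries numbered 573, and 777 to 1677 with a library left out. Those below numbered 321, and 437 to 1348. Leaving a library out cannot lower these counts, since fewer values then need to be in order. Causes were not tested. No paired analysis was possible because the table carries no antibody or replicate labels.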
